A study of Homo sapiens with 12 samples.

Results

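Vector-transduced HL-60 cells were set against parental HL-60 cells, the 2 untreated controls of a study of JMJD3. HL-60 is a human promyelocytic leukaemia cell line, and JMJD3 (gene symbol KDM6B) is a histone demethylase that erases H3K27 methylation, the mark laid down by Polycomb. The members were the 3 libraries from cells that had received a control vector and the 3 libraries from parental cells, 6 of the 12 libraries of the series, taken by their titles. The vector libraries stand in a table with 3 libraries from cells transduced with a JMJD3-expression vector, and the parental libraries in a table with 3 JMJD3 knockout libraries. All 4 groups were grown in DMEM with serum, and none carries a labelled drug treatment. The labels name neither the vector, its promoter and its selection, nor whether any line is a clone, and they do not say that replicates were separate cultures, so the spread behind the p-values may be purely technical. Transduction, time in culture and sequencing run all differ, or may differ, between the 2 controls and cannot be told apart.

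HL-60 cells keep the programme of a promyelocyte, the granulocyte precursor that fills its primary (azurophil) granules with myeloperoxidase and serine proteases. They can be driven on to neutrophil-like, monocyte-like or eosinophil-like cells. Immediate early genes such as FOS and EGR1 are transcription factors switched on within minutes by growth factors, serum or stress, and NF-kappaB targets such as CXCL8 and TNF are the cytokines and survival factors of an activated myeloid cell. ATF4 is the transcription factor of the integrated stress response, which raises genes of amino acid supply and of cell death.

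The vector libraries held 26861304, 31472517 and 37941415 expected counts, and the parental libraries 37065305, 34862583 and 43647710. Levels are given as CPM, counts scaled to a common library size, after the authors' separate scaling of each table had been undone and all 12 libraries had been scaled together. MPO, the myeloperoxidase gene, had 18879, 18383 and 15074 CPM in vector libraries and 10534, 10103 and 10413 CPM in parental libraries, and MYB and CD33 were present in all 6 libraries. ELANE, the neutrophil elastase gene that promyelocytes are known for, stayed at or under 0.154 CPM in all 6. The globin genes HBA1, HBA2 and HBB, and CD8A, MS4A1, PF4 and COL1A2 had no count in any of the 6, but other members of their marker lists were present. The erythroid list summed to 363 to 470 CPM in vector and 242 to 296 CPM in parental libraries. In the same order the lymphoid list had 203 to 318 and 106 to 110 CPM, and the megakaryocyte and platelet list 137 to 145 and 184 to 188 CPM. The epithelial and fibroblast list had 29.3 to 32.9 and 27.3 to 28.3 CPM. Vector libraries 1 and 2 lay close together, with 2 of 9768 well-measured genes at least 2-fold apart (0.0205%), and vector library 3 was 17 genes from each (0.174%), while pairs of parental libraries had 1 to 17 such genes (0.0102% to 0.174%). The chi-square of the counts per gene, which is near 1 for counting noise alone, set vector library 3 further off: it was 36.1 and 38.5 between vector library 3 and the other vector libraries, 1.93 between vector libraries 1 and 2, and 8.05 to 14.6 between parental libraries. In vector library 3, the 4667 genes with the lowest GC content lay a median of 0.20 log2 units above vector libraries 1 and 2, and the 4664 with the highest GC content differed by −0.25. Pairs of 1 vector and 1 parental library had 1.48% to 2.62% of these genes at least 2-fold apart.

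Of 14077 genes tested with edgeR's quasi-likelihood test, 37.8% had a Benjamini-Hochberg adjusted p below 0.05, 18.4% higher and 19.4% lower in vector cells. A gene was therefore called only where it also changed at least 2-fold and the 3 vector and 3 parental libraries did not overlap. By this rule 167 genes were higher in vector cells (1.19%) and 547 were lower (3.89%). At 4-fold or more, which is termed a large change below, 38 genes were higher (0.27%) and 101 lower (0.717%), 0.987% in all, and 34 and 81 of these were also large without vector library 3 (0.242% and 0.575%). Protein-coding genes made up 84.2% of the large higher genes, 50.5% of the large lower genes and 82.7% of all genes tested.

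Promoters are shown for 4 of the genes with large changes, since the letters that the named transcription factors are known to bind can be read in them. They are RefSeq promoter windows of 300 bases on GRCh38.p14, read along the gene, from 250 bases before its start. EGR1 lies on chr5:138465229-138465528 (plus strand), and capitals mark CArG boxes, the letters bound by serum response factor, beginning 105 and 83 bases before the start. CXCL8 lies on chr4:73740319-73740618 (plus strand), with an AP-1 site, the letters bound by FOS and JUN, 137 bases before the start and a kappa-B-like stretch 91 bases before it in capitals. CHAC1 lies on chr15:40953221-40953520 (plus strand), with the letters bound by ATF4 and C/EBP partners, on the reverse strand, 209 bases before the start. CBR1 lies on chr21:36069774-36070073 (plus strand), and capitals mark each CG, of which there are 27.
EGR1: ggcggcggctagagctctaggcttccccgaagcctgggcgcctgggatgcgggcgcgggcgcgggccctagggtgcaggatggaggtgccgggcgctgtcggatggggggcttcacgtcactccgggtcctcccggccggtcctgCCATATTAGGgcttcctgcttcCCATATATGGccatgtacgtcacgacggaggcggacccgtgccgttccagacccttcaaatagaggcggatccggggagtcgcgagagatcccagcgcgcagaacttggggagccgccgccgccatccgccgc
CXCL8: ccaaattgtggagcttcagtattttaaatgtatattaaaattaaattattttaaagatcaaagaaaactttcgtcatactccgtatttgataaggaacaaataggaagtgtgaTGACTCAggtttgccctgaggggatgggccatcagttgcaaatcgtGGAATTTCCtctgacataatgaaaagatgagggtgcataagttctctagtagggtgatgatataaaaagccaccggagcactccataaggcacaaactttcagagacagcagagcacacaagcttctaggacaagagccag
CHAC1: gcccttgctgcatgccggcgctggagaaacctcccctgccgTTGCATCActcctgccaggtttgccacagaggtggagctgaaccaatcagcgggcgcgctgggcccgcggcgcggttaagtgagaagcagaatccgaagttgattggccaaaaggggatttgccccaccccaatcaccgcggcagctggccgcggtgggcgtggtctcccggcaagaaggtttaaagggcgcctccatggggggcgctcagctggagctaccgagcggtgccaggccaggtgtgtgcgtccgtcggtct
CBR1: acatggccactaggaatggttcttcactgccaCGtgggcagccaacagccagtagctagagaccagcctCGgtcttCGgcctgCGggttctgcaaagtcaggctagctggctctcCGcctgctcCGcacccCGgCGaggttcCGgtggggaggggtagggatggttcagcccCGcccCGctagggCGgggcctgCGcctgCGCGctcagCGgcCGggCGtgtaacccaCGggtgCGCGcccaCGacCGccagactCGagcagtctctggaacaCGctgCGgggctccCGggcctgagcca

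Of the 101 large lower genes, 39 had a promoter in the RefSeq table, as did 26 of the 38 large higher genes and 9242 of the genes tested. On both strands, a CArG box stood in 1 of the 39 promoters and in 0.995% of the 9242, the AP-1 letters TGANTCA in 3 of the 39 and in 4.32%, the kappa-B-like letters GGNNTTTCC in 5 of the 39 and in 6.65%, and the ATF4 letters TGATGNAA in 4 of the 39 and in 1.6%. The marked stretches do not overlap one another. The median number of CG pairs was 23.5 in the promoters of large higher genes, 14 in those of large lower genes and 26 over all tested genes with a promoter. These shares are descriptions of the letters.

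Immediate early genes were lower in vector cells. Of 34 listed genes 32 were tested, and 14 were called lower and none higher (43.75%, against 5.07% of all genes). By 4-fold or more 7 were lower, against 0.717% of all genes. The median log2 fold change was −0.71, against −0.01 over all genes tested. FOS, a subunit of AP-1 (chr14:75278774-75282230), had 5.56, 5.91 and 4.74 CPM in the vector libraries, against 114, 98.4 and 92.0 CPM in the parental libraries. The groups stood far apart, and the log2 fold change was −4.24 ± 0.12 (SE, n = 3 each, edgeR adjusted p = 1.449e-07). EGR1, a zinc finger factor of the serum response, had 4.75, 4.10 and 2.74 CPM in vector cells and 30.0, 26.0 and 28.2 CPM in parental cells (log2 fold change −2.88 ± 0.17, SE, edgeR adjusted p = 1.821e-05). FOSB, another AP-1 subunit, had 5.09, 4.99 and 4.29 CPM in vector cells and 25.3, 23.9 and 19.2 CPM in parental cells (−2.25 ± 0.13, SE, edgeR adjusted p = 1.883e-05). In all 3 genes every vector library lay below every parental library, and vector library 3 was the lowest of its group.

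IER3, a stress-induced survival gene, had a summed 13 counts in the vector libraries and 341 in the parental libraries, with a log2 fold change of −4.34 ± 0.31 (SE). EGR2, of the same family as EGR1, had 13 counts in vector and 165 in parental libraries (−3.28 ± 0.37, SE). The called members with smaller changes were JUN (−1.70), KLF2 (−1.53), ATF3 (−1.41), BTG2 (−1.28), DUSP4 (−1.18), JUNB (−1.03) and DUSP6 (−1.01), of which the DUSP genes encode phosphatases that shut down MAP kinases. EGR3 and NR4A3 were also called lower, at −2.43 and −2.05, NR4A3 with only 10 counts in the vector and 54 in the parental libraries. Not every member moved: JUND, IER5, ZFP36, NR4A1 and SPRY2 had log2 fold changes between −0.12 and 0.17 and did not pass the adjusted p. Without vector library 3 the number called lower was 12.

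Genes of the NF-kappaB and inflammatory list were lower as well. Of 36 listed genes 25 were tested, and 11 were called lower and none higher (44%, against 5.07% of all genes). By 4-fold or more 7 were lower, against 0.717% of all genes. The median log2 fold change was −0.88. CXCL8, the neutrophil chemokine interleukin-8, had 13.01, 12.95 and 16.7 CPM in the vector libraries, against 233, 165 and 183 CPM in the parental libraries. Its lowest parental library was far above its highest vector library, and the log2 fold change was −3.76 ± 0.16 (SE, n = 3 each, edgeR adjusted p = 2.691e-06). TNF had 13.04, 12.5 and 8.74 CPM in vector cells and 41.5, 35.1 and 33.6 CPM in parental cells (−1.69 ± 0.15, SE, edgeR adjusted p = 0.0001146). NFKB2, a subunit of the non-canonical pathway, had a log2 fold change of −1.16 ± 0.09 (SE), and TRAF1, a signalling adaptor of TNF receptors, −1.77 ± 0.20 (SE).

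The monocyte chemokine CCL2 had 0.193, 0.297 and 0.213 CPM in vector cells and 3.03, 3.50 and 3.26 CPM in parental cells (−3.78 ± 0.23, SE, edgeR adjusted p = 1.955e-05). ICAM1, an adhesion molecule bound by leukocyte integrins, had 0.463, 0.264 and 0.133 CPM in vector cells and 3.50, 2.995 and 2.84 CPM in parental cells (−3.50 ± 0.32, SE). CCL20, IL1B and BCL2A1, a survival factor of the BCL2 family, were also called lower, at −2.52, −2.35 and −1.85. IL1B rested on only 8 counts in the vector and 53 in the parental libraries together. CCL3 and CCL4 were called lower too, but each has a near-identical copy among which reads may have been split, and CCL3 had only 3 counts in the vector libraries together. The subunits RELA and REL had log2 fold changes of 0.32 and 0.33 with an adjusted p below 0.05, less than 2-fold higher in vector cells, while NFKB1 (0.02) and the inhibitor gene NFKBIA (0.22) did not pass the adjusted p. Without vector library 3, 12 members were called lower.

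**Figure D1:**
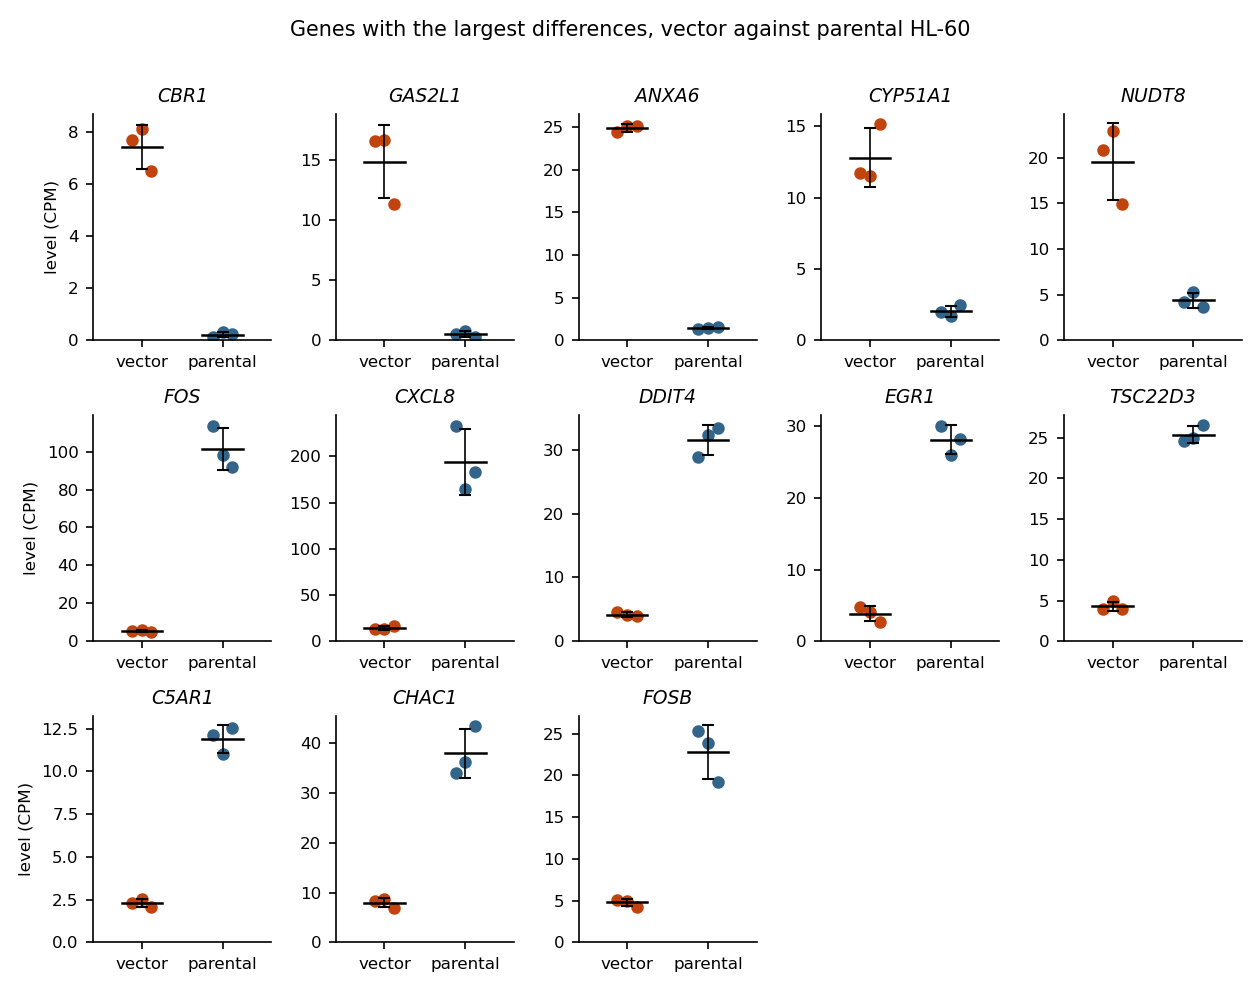
Level in CPM (linear axes from 0) of 13 genes with large differences in the 3 vector libraries (left) and the 3 parental libraries (right) of each panel; points are libraries, the bar is the mean and the whiskers are 1 SD. In each panel the groups do not overlap, as in ANXA6 with 24.4 to 25.1 CPM in vector cells and 1.34 to 1.53 CPM in parental cells.

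Genes of the integrated stress response were lower in vector cells, most of them by less than 2-fold. Of 38 listed genes of ATF4 and amino acid supply 31 were tested. Of these 4 were called lower and none higher (12.9%, against 5.07% of all genes). By the adjusted p alone 23 were lower and 1 higher, against 19.4% and 18.4% of all genes. The median log2 fold change was −0.47. DDIT4, an inhibitor of mTORC1, had 4.55, 4.13 and 3.92 CPM in the vector libraries and 28.9, 32.3 and 33.4 CPM in the parental libraries (−2.92 ± 0.10, SE, edgeR adjusted p = 9.375e-07). CHAC1, which degrades glutathione, had 8.38, 8.65 and 6.93 CPM in vector cells and 34.0, 36.2 and 43.5 CPM in parental cells (−2.25 ± 0.13, SE, edgeR adjusted p = 1.316e-05). In both genes the highest vector library lay far below the lowest parental library. DDIT3, the factor CHOP, and SLC7A11, the cystine transporter, were called lower at −1.47 ± 0.13 and −1.28 ± 0.11 (SE), and ATF4 itself had −0.35. BBC3, which encodes the death inducer PUMA, was lower at −1.50 ± 0.16 (SE), but it belongs to another list, of cell cycle inhibitors and p53 genes. In that list 2 of 18 genes tested were called lower and none higher (11.1%). In the list of endoplasmic reticulum chaperones the direction was the other way: 13 of 24 were higher and 4 lower by the adjusted p alone. CALR (1.02) and SDF2L1 (1.02), each close to the 2-fold limit, were called higher (8.33% of the 24). Both lost the call in 8 of 17 alternative settings.

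TSC22D3, a glucocorticoid-induced repressor of inflammatory transcription, had 4.01, 4.95 and 3.996 CPM in vector cells and 24.6, 24.9 and 26.6 CPM in parental cells. The log2 fold change was −2.55 ± 0.11 (SE, edgeR adjusted p = 2.954e-06), with narrow spread in both groups. C5AR1, the receptor for complement fragment C5a on myeloid cells, had 2.32, 2.54 and 2.05 CPM in vector cells and 12.1, 11.0 and 12.5 CPM in parental cells (−2.37 ± 0.12, SE, edgeR adjusted p = 9.234e-06). CDKN1A, the cell cycle inhibitor p21, had 18 counts in the vector libraries together and 202 in the parental libraries, and its vector levels of 0.0386, 0.0991 and 0.373 CPM were highest in vector library 3. Genes of DNA replication and of mitosis had no called member among 37 and 30 tested by edgeR, nor by DESeq2, where 5.07% of all genes were called. Past an unadjusted p of 0.05 were 23 and 18. By the adjusted p 15 and 14 were higher and 5 and 1 lower, against 18.4% and 19.4% of all genes.

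Markers of monocytes and macrophages were lower where they changed. Of 38 listed genes 22 were tested, and 5 were called lower and none higher (22.7%, against 5.07% of all genes). The median log2 fold change was −0.70. CLEC7A, the beta-glucan receptor dectin-1, had 0.502, 0.528 and 0.666 CPM in vector cells and 2.40, 2.49 and 4.06 CPM in parental cells (−2.38 ± 0.28, SE, edgeR adjusted p = 0.0004002). ITGAX, the integrin CD11c, had 1.04, 1.29 and 1.17 CPM in vector cells and 5.66, 5.04 and 6.23 CPM in parental cells (−2.27 ± 0.16, SE, edgeR adjusted p = 3.935e-05). CD86, TLR8 and C1QA were called lower at −1.30, −1.33 and −1.16. CYBB, the catalytic subunit of the phagocyte NADPH oxidase, was lower at −2.52 ± 0.23 (SE), but it belongs to another list, of NADPH oxidase genes. In that list it was the 1 called member of 7 tested (14.3%, against 5.07% of all genes). The summed level of the whole marker list was 427 to 447 CPM in vector libraries and 484 to 508 CPM in parental libraries. The defining markers CD14, CD163 and MRC1 lay at or under 0.132 CPM in all 6 libraries, and FCGR3A had no count. Fewer cells of a type and less RNA per cell cannot be told apart in such bulk samples.

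Granule genes showed no single direction. Of 20 tested genes of the azurophil granule list 4 were called higher and none lower (20%, against 5.07% of all genes). The median log2 fold change was 0.13. PRTN3, which encodes proteinase 3, had 903, 930 and 631 CPM in vector cells and 383, 398 and 361 CPM in parental cells (1.11 ± 0.13, SE, edgeR adjusted p = 0.0004378). PRSS57, a serine protease of the same granules, had 8.18, 8.55 and 5.68 CPM in vector cells and 0.737, 0.756 and 0.532 CPM in parental cells (3.47 ± 0.22, SE, edgeR adjusted p = 2.555e-05). In both genes vector library 3 lay nearest to the parental libraries. The other called members of the list are not typical of azurophil granules: RNASE3 (1.52), an eosinophil granule gene, and SERPINB10 (1.01), an intracellular serpin. SERPINB10, close to the 2-fold limit, kept its call in 13 of 17 alternative settings. MPO (0.75), AZU1 (0.61) and CTSG (0.68) were higher by less than 2-fold with an adjusted p below 0.05, while LYZ (−0.63) and SERPINB1 (−0.73) were lower by less than 2-fold.

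Eosinophil granule genes were among the called higher ones. Of 20 listed eosinophil, basophil and mast cell genes 11 were tested, with a median log2 fold change of 0.56. Of these 3 were called higher and 1 lower (36.4%, against 5.07% of all genes). PRG2, the eosinophil major basic protein, had 2432, 2602 and 2614 CPM in vector cells and 1342, 1275 and 1074 CPM in parental cells (1.05 ± 0.09, SE, edgeR adjusted p = 8.478e-05). EPX, the eosinophil peroxidase, had 4.63, 6.24 and 3.65 CPM in vector cells and 1.34, 0.924 and 1.44 CPM in parental cells (1.95 ± 0.24, SE, edgeR adjusted p = 0.0005092). CLC, the Charcot-Leyden crystal protein, was called higher at 1.11 ± 0.11 (SE), and ADGRE1 was called lower at −1.15 ± 0.15 (SE). PRG2 and CLC lay close to the 2-fold limit: PRG2 lost its call in 4 of 17 alternative settings, among them the GC correction and the fit without parental library 3, and CLC in 2, of which 1 was the fit without parental library 1. The summed level of the list was 2556 to 2740.5 CPM in vector libraries and 1146 to 1408 CPM in parental libraries, most of it PRG2. The mast cell tryptase genes TPSAB1 and TPSB2 had no count in any of the 6. IGLL1, a surrogate light chain gene of pre-B cells, was called higher with 303, 294 and 190 CPM in vector cells and 98.8, 98.3 and 95.9 CPM in parental cells, while MS4A1, CD3G and CD8A had no count.

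Genes of hypoxia and glycolysis were mixed. Of 35 listed genes 32 were tested, and 4 were called lower and none higher (12.5%, against 5.07% of all genes). By the adjusted p alone 12 were higher and 11 lower, against 18.4% and 19.4% of all genes. SLC2A3, a glucose transporter of leukocytes, had 37.4, 41.2 and 43.3 CPM in vector cells and 123, 127 and 138 CPM in parental cells (−1.67 ± 0.08, SE, edgeR adjusted p = 7.143e-06). VEGFA (−1.12), ALDOC (−1.05) and ENO2, with 21 counts in vector and 108 in parental libraries, were the other called members, and without vector library 3 the number called was 2. Of 28 interferon-stimulated genes tested, IFIT2 (−1.80) and GBP2 (−1.87) were called lower, which is 7.14% and near the 5.07% of all genes. None of 16 genes of antigen presentation or 26 cytokine receptors was called by edgeR or DESeq2, with 10 and 14 past an unadjusted p of 0.05. With 5.07% of all genes called, lists this short may hold no call, so nothing is read from it.

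Late neutrophil genes were lower more often than higher by the adjusted p, while myeloid transcription factors had 1 call and the Polycomb machinery none. Of 13 late neutrophil genes tested 7 were lower and 1 higher by the adjusted p alone, against 19.4% and 18.4% of all genes. The median log2 fold change was −0.54. S100P (−1.87) and ANXA3 (−1.01) were called lower and CEACAM6 (1.77) higher, 23.1% of the 13 against 5.07% of all genes. ANXA3, close to the 2-fold limit, lost its call in 8 of 17 alternative settings, among them DESeq2, the GC correction and the fit without vector library 3. Among 29 myeloid transcription factors ETS1 was called lower (3.45%, against 5.07% of all genes). It had 20.7, 22.99 and 25.2 CPM in vector cells and 55.2, 57.2 and 56.7 CPM in parental cells. CEBPA (0.19), CEBPE (0.20) and SPI1 (0.28) did not pass the adjusted p. None of 35 Polycomb and H3K27 genes, 12 HOX genes or 14 stem and progenitor genes was called by edgeR or DESeq2. With 5.07% of all genes called, lists of this size may hold few calls or none. By the adjusted p alone 13, 3 and 3 of them passed, against 37.8% of all genes, and 17, 6 and 6 were past an unadjusted p of 0.05. KDM6B itself had 34.5, 34.0 and 24.2 CPM in vector cells and 55.0, 55.2 and 57.7 CPM in parental cells. Its log2 fold change of −0.86 ± 0.12 (SE, edgeR adjusted p = 0.0009908) was under 2-fold, and was −0.69 without vector library 3. EZH2, the writer of the mark, had 122, 122 and 127 CPM in vector cells and 113, 109 and 113 CPM in parental cells and did not pass the adjusted p. Ribosomal protein genes (median −0.23) and ribosome biogenesis genes (median 0.30) had no called member by edgeR or DESeq2. By the adjusted p alone 22 of 37 were lower and 18 of 33 higher, and 25 of each list were past an unadjusted p of 0.05.

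**Figure D2:**
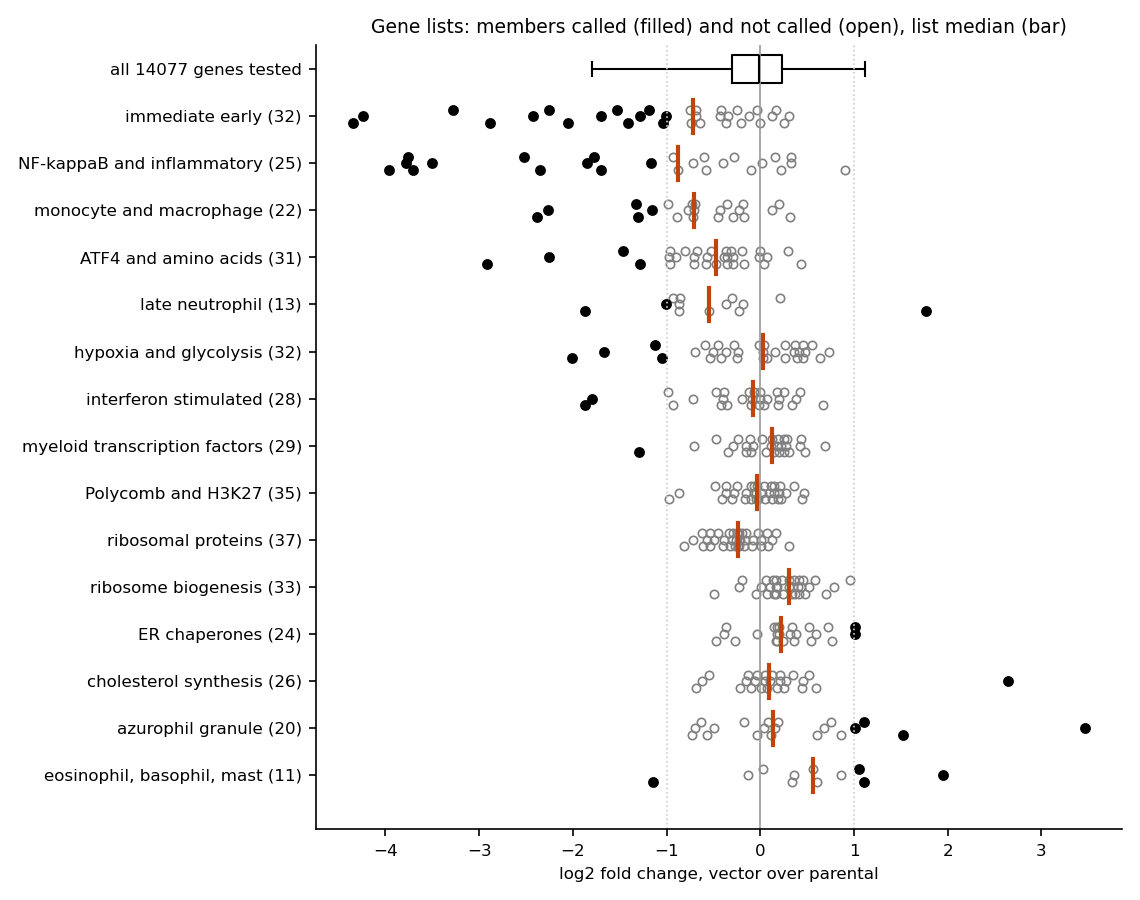
The log2 fold change, vector over parental, of each tested member of 15 gene lists, with the number tested in brackets; filled points are called members, open points are not called, the bar is the list median and the box at the top gives the median, quartiles and the range of the middle 98% of all 14077 genes. Called immediate early, NF-kappaB and monocyte members all lie to the left, at up to −4.34 for IER3, and called azurophil members to the right, at up to 3.47 for PRSS57.

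The large higher genes were fewer, and were spread over several lists. CBR1, a carbonyl reductase that clears quinones and other carbonyls (chr21:36069941-36073166), was the 1 gene with at least 5 CPM in every library of a control and under 0.5 CPM in every library of the other. It had 7.68, 8.12 and 6.50 CPM in vector cells and 0.105, 0.308 and 0.222 CPM in parental cells, with a log2 fold change of 5.12 ± 0.25 (SE, edgeR adjusted p = 7.143e-06). ANXA6, a calcium-dependent membrane-binding annexin (chr5:151100712-151157882), had 24.4, 25.1 and 25.1 CPM in vector cells and 1.34, 1.48 and 1.53 CPM in parental cells (4.09 ± 0.10, SE, edgeR adjusted p = 1.154e-07). GAS2L1, which links actin to microtubules (chr22:29306582-29312785), had 16.6, 16.6 and 11.3 CPM in vector cells and 0.526, 0.728 and 0.288 CPM in parental cells (4.88 ± 0.27, SE, edgeR adjusted p = 1.27e-05). The groups lay more than 10 CPM apart in ANXA6 and GAS2L1, and without vector library 3 the log2 fold changes of the 3 genes were 5.23, 4.11 and 5.07.

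CYP51A1, the lanosterol demethylase of cholesterol synthesis, had 11.7, 11.5 and 15.2 CPM in vector cells and 1.95, 1.71 and 2.44 CPM in parental cells (2.65 ± 0.17, SE, edgeR adjusted p = 2.419e-05). It was the 1 called member among 26 cholesterol genes tested (3.85%, against 5.07% of all genes). HMGCS1, the synthase at the start of the pathway, did not pass the adjusted p, at −0.04. FASN, the fatty acid synthase, was the 1 called member of 18 lipid synthesis genes (5.56%), at 1.05. NUDT8, a mitochondrial Nudix hydrolase, had 20.9, 22.99 and 14.9 CPM in vector cells and 4.18, 5.29 and 3.66 CPM in parental cells (2.16 ± 0.19, SE, edgeR adjusted p = 0.000101). TNFRSF10B, a death receptor for TRAIL, had 3.24, 3.47 and 3.89 CPM in vector cells and 0.395, 0.616 and 0.421 CPM in parental cells (2.89 ± 0.21, SE, edgeR adjusted p = 4.746e-05), while TNFRSF10D, a decoy receptor for the same ligand, was lower at −1.36 ± 0.09 (SE).

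Zinc finger genes with a ZNF symbol, most of which encode DNA-binding repressors, made up 7 of the 28 protein-coding genes with a large higher level both with and without vector library 3, and 1 of the 48 with a large lower level. Of all 11634 protein-coding genes tested, 2.96% had such a symbol. Over the family, 361 of 642 genes were tested, 10 were called higher and 6 lower (4.43%, against 5.07% of all genes), and the median log2 fold change was −0.06. ZNF37A had 6.56, 6.47 and 7.43 CPM in vector cells and 0.421, 0.784 and 0.377 CPM in parental cells (3.71 ± 0.23, SE, edgeR adjusted p = 2.202e-05). ZNF322 had 104 counts in the vector libraries and 9 in the parental libraries (3.80 ± 0.44, SE), and ZNF470 had 48 in vector and 4 in parental libraries. ZNF566 had 52 counts in the vector libraries and 2 in the parental libraries, too few in the parental cells for a fold.

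Set beside the JMJD3-transduced and knockout libraries, 14 of the 28 protein-coding genes with a large higher level held a middle place, below the knockout and above the JMJD3-transduced libraries without overlap, against 5.29% of all genes tested. Both comparisons of the study share control samples with this one, so only the levels are given. ANXA6 averaged 140 ± 4.99 CPM in knockout cells, 24.9 ± 0.44 CPM in vector cells, 4.50 ± 0.22 CPM in JMJD3-transduced cells and 1.45 ± 0.10 CPM in parental cells (SD, n = 3 each). GAS2L1 averaged 62.7, 14.9, 1.39 and 0.514 CPM in the same 4 groups, CYP51A1 75.1, 12.8, 2.23 and 2.03 CPM, ZNF37A 59.0, 6.82, 0.356 and 0.527 CPM, and CBR1 24.6, 7.44, 0.117 and 0.212 CPM. These genes were taken from the 14. The place of the vector cells, which carry no knockout, below knockout and above JMJD3-transduced and parental cells is thus fixed by the choice. KDM6B RNA averaged 39.5 CPM in knockout, 30.9 CPM in vector, 93.4 CPM in JMJD3-transduced and 56.0 CPM in parental cells. The vector cells held the least KDM6B RNA of the 4 groups, at 34.5, 34.0 and 24.2 CPM, lowest in vector library 3. JMJD3 protein is not part of these data. RNA from the JMJD3-expression vector cannot be told apart in the JMJD3-transduced level. Of the 28 genes, 17 had all 3 knockout libraries above all 3 vector libraries and 9 had them below, and 21 had all 3 JMJD3-transduced libraries below. Over all genes tested, 24.8% had the knockout libraries above the vector libraries and 27.2% had the JMJD3-transduced libraries below them. The share with the knockout libraries below the vector libraries was not computed, so nothing is read from the 9. High vector levels chose the 28 genes, which partly fixes where the JMJD3-transduced libraries lie, so these counts are a description only. In the 14 genes with a middle place the vector mean was 11.6% to 75.9% of the knockout mean. NUDT8 was different, with 7.35 CPM in knockout, 19.6 CPM in vector, 8.27 CPM in JMJD3-transduced and 4.38 CPM in parental cells.

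**Figure D3:**
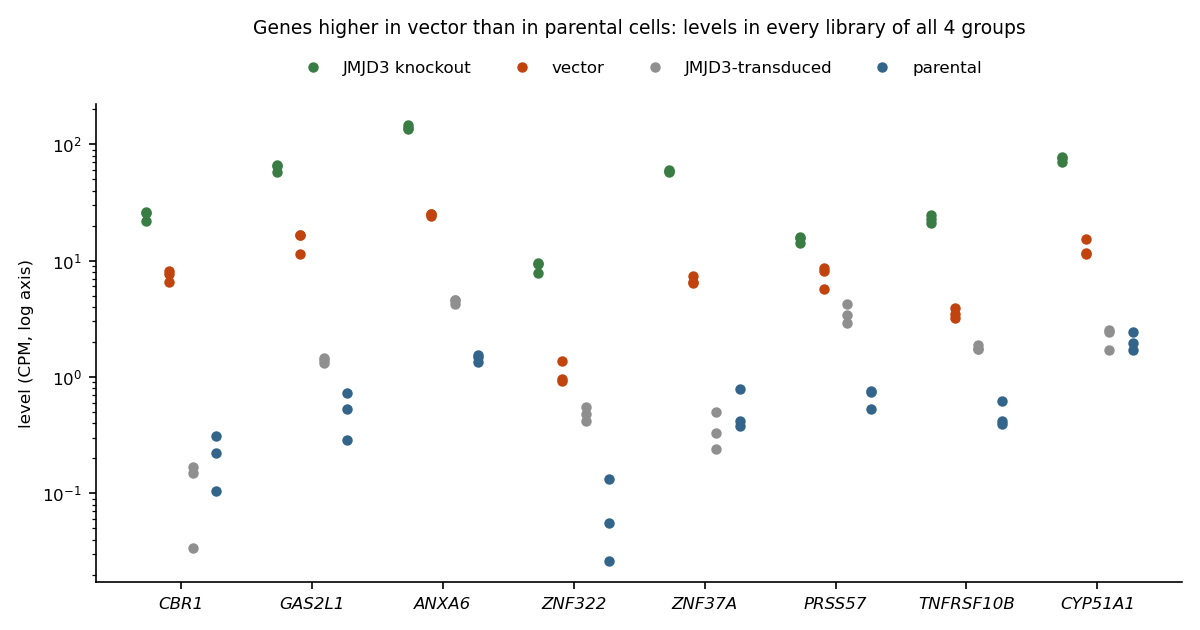
Level in CPM (log axis) of 8 of the 14 genes with a middle place, all large higher genes, with 1 point per library. Each group has 3 libraries, in the order JMJD3 knockout, vector, JMJD3-transduced and parental. The genes were chosen for vector libraries below the knockout and above the JMJD3-transduced and parental libraries, so this order is fixed by the choice. TNFRSF10B had means of 22.7, 3.53, 1.78 and 0.477 CPM.

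The large lower genes showed several orders. FOS averaged 55.8 ± 15.6 CPM in knockout cells, 5.40 ± 0.60 CPM in vector cells, 42.1 ± 4.58 CPM in JMJD3-transduced cells and 101 ± 11.1 CPM in parental cells (SD, n = 3 each). CXCL8 averaged 176, 14.2, 273 and 194 CPM in the same groups, so the vector cells alone were low. C5AR1 averaged 1.35, 2.30, 7.17 and 11.9 CPM, CHAC1 5.23, 7.99, 10.7 and 37.9 CPM, and TSC22D3 17.6, 4.32, 4.34 and 25.4 CPM, so each of these had another group near the vector cells. Of the 48 protein-coding genes with a large lower level, 42 had all 3 JMJD3-transduced libraries above all 3 vector libraries and 34 had all 3 knockout libraries above them. Over all genes tested these shares were 29.2% and 24.8%. Low vector levels chose the 48 genes, which partly fixes both directions, so nothing is read from the counts.

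Leaving out vector library 3 kept most of the calls, 145 of 167 higher (1.03% of genes tested) and 448 of 547 lower (3.18%). Vector library 3 lay nearer to the parental libraries than the other vector libraries did in 111 of the 167 higher genes (66.5%) and 309 of the 547 lower genes (56.5%). Genes with a high GC content were more often called higher: 1.99% of the 4664 genes highest in GC, 1.05% of the middle 4662 and 0.536% of the lowest 4667, with median log2 fold changes of 0.17, 0.02 and −0.17. The part of GC content in the calls was not tested beyond an alternative with a GC correction, which gave 127 higher and 540 lower calls. None of the 13 genes of the level plot lost its call in any of the 17 alternative settings. All of them but CBR1 had been chosen for large changes with and without vector library 3, so that setting was fixed beforehand.

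**Figure D4:**
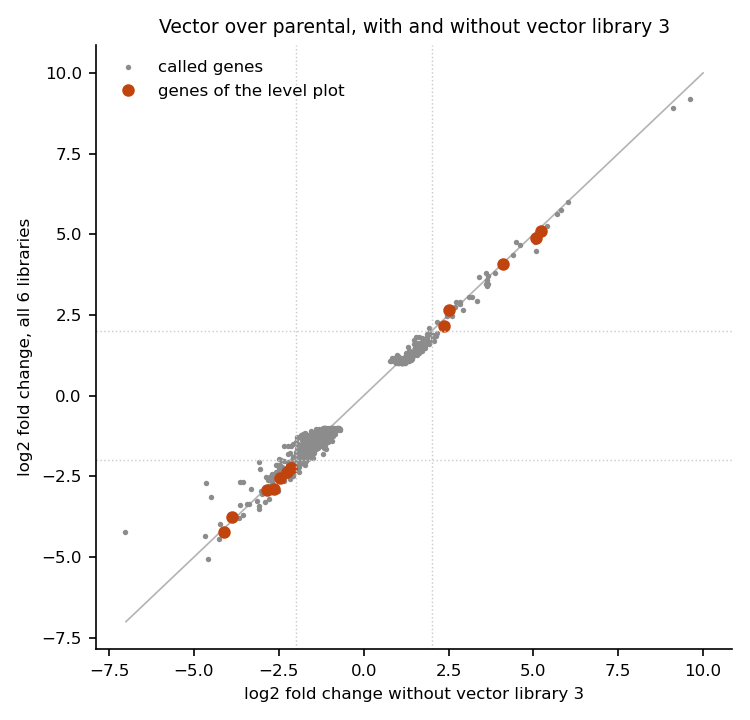
The log2 fold change, vector over parental, of the called genes in all 6 libraries (vertical axis) against the same without vector library 3 (horizontal axis); the line marks equal values, dotted lines mark 4-fold, and coloured points are the 13 genes of the level plot. The points lie along the line. The coloured ones lie beyond 4-fold on both axes, which was the condition for choosing all of them but CBR1.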

How the data were processed

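RNA sequencing of vector-transduced and parental HL-60 cells, 3 libraries each, was analysed, with groups taken from the sample titles. The GRCh38 build and the tools RSEM, edgeR, TopHat2 2.0.4 and CASAVA 1.8 are named in the submitters' processing notes, without saying which column each made. The TruSeq kit named in the labels' protocols does not mark strand, so overlapping and antisense genes cannot be told apart. The authors deposited expected counts and FPKM values per gene, per the file headers, in 2 tables. The deposited log2 fold changes and p-values of the authors were not used. From the values, each deposited count column is an expected count times 1 factor per library (0.772 to 1.197): divided by it, whole numbers (tolerance 0.02) made up 92.9% to 94.1% of the values under 1000. The factors were divided out, counts rounded, and the tables joined on 60660 Ensembl gene IDs (57044 in GENCODE 29). 13 lines without values were left out, and 28 symbols turned into dates were restored.

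edgeR 4.0.16 in R 4.3.3 (TMM, default filter, robust quasi-likelihood) tested vector over parental, with Benjamini-Hochberg adjustment. Standard errors are the absolute log2 fold change over the square root of F, and the biological coefficient of variation was 9.36%. On simulated data the script was checked against known changes. Same-numbered libraries did not deviate together (correlations −0.03, 0.07 and 0.02), so no pairing was used. Named genes are those reaching 10 CPM with large changes with and without vector library 3 (4 higher and 8 lower), up to 4 per list with 2 or more calls, and a fixed set of identity and JMJD3 genes, with further list members named beside their counts. Some genes of these sets are not reported here. The members and lists were chosen with earlier results of these data known. CPM is not scaled by gene length, so levels are compared within a gene only.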

Additional observations from a re-analysis of the deposited data

How the results depend on the processing

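Of 68 recomputed counts of called genes, 57 stayed within 1.5 times. The higher calls, 167 as reported, were 63 with FPKM values in limma 3.58.1 (log2 of FPKM + 1) and 29 with edgeR's glmTreat against 2-fold, and the lower calls, 547 as reported, were 154 and 69. Large higher genes, 38 as reported, were 64 with no filter on low counts and 8 with FPKM, and large lower genes, 101 as reported, were 177, 21 and, with glmTreat, 42. The added pseudocount shrinks low genes in the FPKM setting. With 1 library left out in turn, higher calls ranged from 129 to 269, the highest without vector library 3, lower calls from 498 to 625, large higher genes from 39 to 52, and large lower genes from 97 to 153, the highest without parental library 3. With the replicate number as a block there were 161 higher and 523 lower calls, 155 and 516 of them shared, and 38 and 98 large ones, and no named call was lost. DESeq2 1.42.0 gave 156 and 474 calls. Vector libraries 1 and 2 differed little beyond counting noise, so n = 3 may overstate the vector group. With these libraries summed into 1 there were 145 higher and 536 lower calls, and 42 and 123 large ones. Of the recomputed values of named genes 1026 kept their call or lack of one and 63 lost it, and KDM6B passed 2-fold only with the GC correction, which was added after seeing the data (−1.08). Signs reversed in uncalled genes: CD33 was 0.016 without vector library 3 (range −0.156 to 0.016 over libraries left out), MYB −0.015 with library size alone, and CEBPA −0.07 and CEBPE −0.034 with the GC correction. CALR, SDF2L1 and ANXA3 lost their calls in 8 settings each. The immediate early and NF-kappaB counts of 14 and 11 fell to 7 and 6 with FPKM and to 8 and 6 with glmTreat. The causes were not tested. Depth limits genes under about 0.5 CPM, where a library holds few counts.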

Other observations

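The genes below were chosen after their values were seen. Among the large lower genes were further receptors and signalling genes of myeloid cells: NLRP12 averaged 1.00 CPM in vector cells and 4.83 CPM in parental cells, FCGR2B 0.325 CPM in vector and 1.71 CPM in parental cells, FGR 0.317 CPM in vector and 1.54 CPM in parental cells, and SOCS3, a feedback inhibitor of cytokine signalling, 0.210 CPM in vector and 1.26 CPM in parental cells. SERPINE2, a protease inhibitor, averaged 0.793 CPM in vector cells and 3.70 CPM in parental cells. MSRB3, a methionine sulfoxide reductase, averaged 2.02 CPM in vector cells and 0.0773 CPM in parental cells, and P3H3, a collagen prolyl hydroxylase, 4.06 CPM in vector and 0.198 CPM in parental cells.

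Pseudogenes were frequent among the lower calls: 28 of the 101 large lower genes were pseudogenes (27.7%), against 5.46% of all genes tested. In 4 families examined, copies were called lower more often than the 3.89% of all genes. Copies of EEF1A1 were called lower in 9 of 14 tested. Their summed levels were 177, 166 and 249 CPM in the vector libraries and 459, 451 and 283 CPM in the parental libraries, so parental library 3 lay apart from its group. Copies of RPL12 were called lower in 6 of 7, with summed levels of 183, 191 and 79.5 CPM in vector libraries and 197, 210 and 135 CPM in parental libraries, which overlap. Copies of RPSA were called lower in 3 of 11 and of RPL13A in 2 of 5. Their median log2 fold changes were −0.72 and −0.43, and their summed levels overlapped as well. Reads of such copies cannot be told apart from those of the parent genes.

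Along the nuclear chromosomes, medians of the log2 fold change ran from −0.13 on chromosome 4 to 0.14 on chromosome 22, and the 15 mitochondrial genes tested had −0.22. Chromosome 21 had the highest share of called genes, 11.4% of 158. Among 12772 runs of 20 neighbouring tested genes, with pseudogenes left out, the middle 98% of run medians lay between −0.36 and 0.38. The lowest run, on chromosome 21 from CH507-24F1.2 to AF127936.9, had a median of −0.78, with 9 of its 20 genes called lower. The whole of chromosome 21 had 15 genes called lower, so much of its share lies in this run. The next lowest, from C3AR1 to CLEC7A on chromosome 12, which holds lectin receptor genes of myeloid cells, had a median of −0.62, with 7 of its 20 genes called lower.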
